A study of Mus musculus with 28 samples.

Results

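The cartilage-like, hyaluronan-binding and lubricating matrix genes were followed in mouse tail tendon fascicles, namely *Sox9*, *Acan*, *Vcan*, *Hapln1*, *Prg4*, *Has1*, *Has2*, *Cilp*, *Cilp2* and *Chad*. They were taken by name, after gene identifiers had been translated to symbols, and made up 10 of the 25719 genes counted. Bulk RNA-sequencing gave 1 library per mouse for 28 C57BL/6 mice. Fosl-2(Tg) mice carry, at a random place in the genome, a mouse *Fosl2* transgene (an AP-1 transcription factor) that is followed by eGFP and driven by a promoter of MHC class I, which is active in most nucleated cells and not only in tendon. Non-transgenic animals of the same breeding served as WT controls. The early cohort held 7 WT and 8 Fosl-2(Tg) mice of 6 to 8 weeks, all male. The established cohort held 6 WT mice (5 females and 1 male) and 7 Fosl-2(Tg) mice (6 females and 1 male) older than 14 weeks, so that stage, age and sex cannot be told apart in a comparison of the cohorts. The labels name no other treatment for any group.

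Cartilage-like matrix gains its resistance to compression from large proteoglycans that hold water. Aggrecan (*Acan*) and versican (*Vcan*) are chondroitin sulfate proteoglycans that bind hyaluronan, and the link protein *Hapln1* stabilises that bond. Hyaluronan itself is made at the plasma membrane by the synthases *Has1* and *Has2*. *Sox9* is the transcription factor of chondrocyte differentiation and drives *Acan*. *Prg4* encodes lubricin, which lets tendon and joint surfaces glide, while *Cilp* and *Cilp2* encode the cartilage intermediate layer proteins, and *Chad* encodes chondroadherin, a leucine-rich repeat protein that binds collagen and cells.

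Reads counted on genes ranged from 9645598 to 66894396 per mouse, with group medians of 19350426 (early WT), 17901692 (early Fosl-2(Tg)), 26998780 (established WT) and 16638405 (established Fosl-2(Tg)). Levels are given as CPM, that is as counts relative to the library total, after TMM scaling over all 28 libraries. *Fosl2* itself did not separate the genotypes. Its level was 110.6 ± 32.7 CPM (SD, n = 6) in established WT and 142.9 ± 15.8 CPM (SD, n = 7) in established Fosl-2(Tg) tendons (log2 fold change 0.38, standard error 0.15, FDR = 0.141 by edgeR), and the count cannot separate the endogenous gene from the transgene. Transcripts that define bone were close to absent, since the 6 bone markers summed to at most 5.40 CPM in any established mouse. Muscle transcripts varied from mouse to mouse. The 8 markers summed to 59.9 to 15885 CPM in established WT and 39.3 to 5175 CPM in established Fosl-2(Tg) tendons. By edgeR 0 of 8 passed, and 1 of 8 had an unadjusted p under 0.05, against 4213 of all 15862 genes tested. Of 8 tendon fibroblast markers, 4 were lower in established Fosl-2(Tg) tendons by edgeR (*Col1a1*, FDR = 0.0356, *Col1a2*, FDR = 0.0367, *Scx*, FDR = 0.0444, and *Tnmd*, FDR = 0.0386), against 3.37% of all genes tested. The calls of *Scx* and *Tnmd* each held in 4 of 13 fits that left out 1 mouse (*Scx* without Fosl-2(Tg) replicate 4, 5, 6 or 7, *Tnmd* without WT replicate 3 or Fosl-2(Tg) replicate 4, 5 or 6; highest FDR in the others 0.0825 and 0.0788), and that of *Scx* was lost with the replicate block (FDR = 0.0643). The 8 markers summed to 91323 to 184443 CPM in WT against 3305 to 73224 CPM in Fosl-2(Tg) mice.

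The 10 genes covered nearly the whole range of expression in WT tendon. To compare genes with one another, CPM was divided by the length of the annotated exons. In established WT tendons, *Chad* came first with 1474 ± 335 CPM per kb (SD, n = 6), and *Prg4* followed with 1296 ± 196 CPM per kb. These values placed *Chad* 10th and *Prg4* 12th among 15803 genes. *Cilp* (458 ± 128 CPM per kb) and *Cilp2* (420 ± 110 CPM per kb) stood at rank 33 and rank 35, and *Vcan* (24.2 ± 11.9 CPM per kb) at rank 823. *Chad* and *Prg4* lay within their spread of each other, as did *Cilp* and *Cilp2*. Transcripts of *Acan* (0.272 CPM per kb, rank 14578), *Hapln1* (0.424 CPM per kb, rank 13853) and *Sox9* (0.83 CPM per kb, rank 12468) were rare. This does not hold for all cartilage genes, since *Comp* had a mean of 1496 CPM and *Col2a1* one of 28.2 CPM in these mice. Both hyaluronan synthases lay between these extremes, with *Has2* at 3.10 and *Has1* at 2.95 CPM per kb. In early WT tendons the first 4 places were again held by *Prg4* (rank 10 of 15086), *Chad* (rank 14), *Cilp* (rank 41) and *Cilp2* (rank 43).

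**Figure D1:**
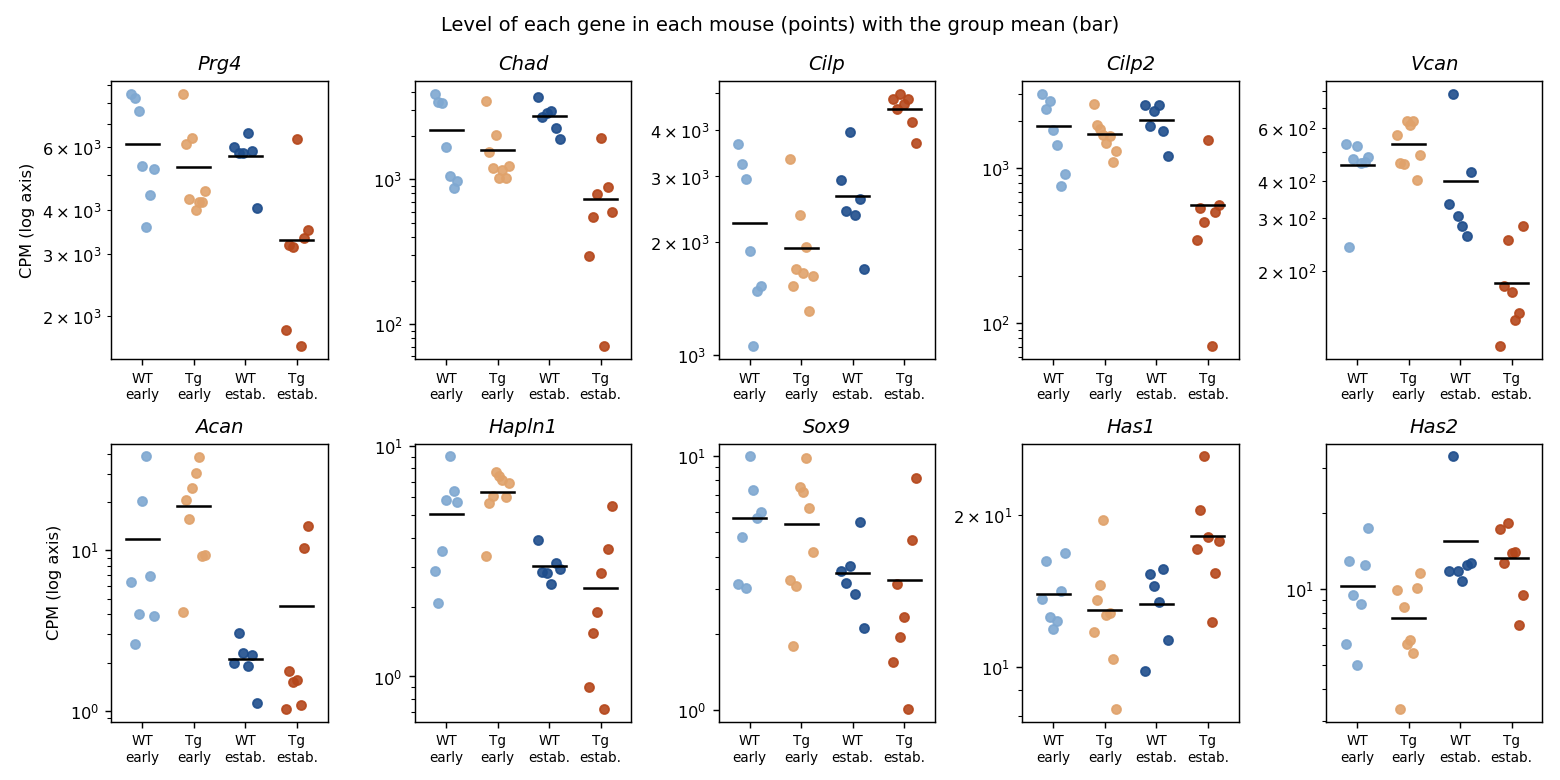
Each panel shows 1 gene, with CPM on a log axis against the 4 groups of mice. Points are single mice and bars are group means (7 early WT, 8 early Fosl-2(Tg), 6 established WT, 7 established Fosl-2(Tg)). For *Prg4*, *Chad*, *Cilp2* and *Vcan*, 6 of the 7 established Fosl-2(Tg) mice sit below every established WT mouse, and 6 of 7 sit above for *Cilp*.

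The comparison of genotypes asked which of these genes differ in expression between Fosl-2(Tg) and WT tendon at each stage. In the established cohort 4 of the 10 genes passed the test, which was edgeR's quasi-likelihood test with an FDR of at most 0.05 (Benjamini-Hochberg adjustment over all 15862 genes tested). *Cilp* was higher, and *Vcan*, *Cilp2* and *Chad* were lower in Fosl-2(Tg) tendons. Of all genes tested, 6.51% passed, 3.14% as higher and 3.37% as lower. The median log2 fold change of the 10 genes was -0.26, against 0.01 over all genes tested. In whole tendon, fewer cells of a type and less RNA per cell cannot be told apart. The tendon fibroblast markers named above moved in the same mice, and their part in these differences was not tested. All 4 genes kept their direction when 1 mouse was left out, but the count of 4 did not hold. Over the 13 fits that left out 1 mouse it ranged from 0 to 5, and it was 0 without WT replicate 1, WT replicate 2, Fosl-2(Tg) replicate 1 or Fosl-2(Tg) replicate 2. Without the 2 males it was 2 (*Cilp2* and *Chad*), while the calls over all genes fell from 1032 of 15862 to 560 of 15853. The calls over all genes in the 13 fits are not given here.

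**Figure D2:**
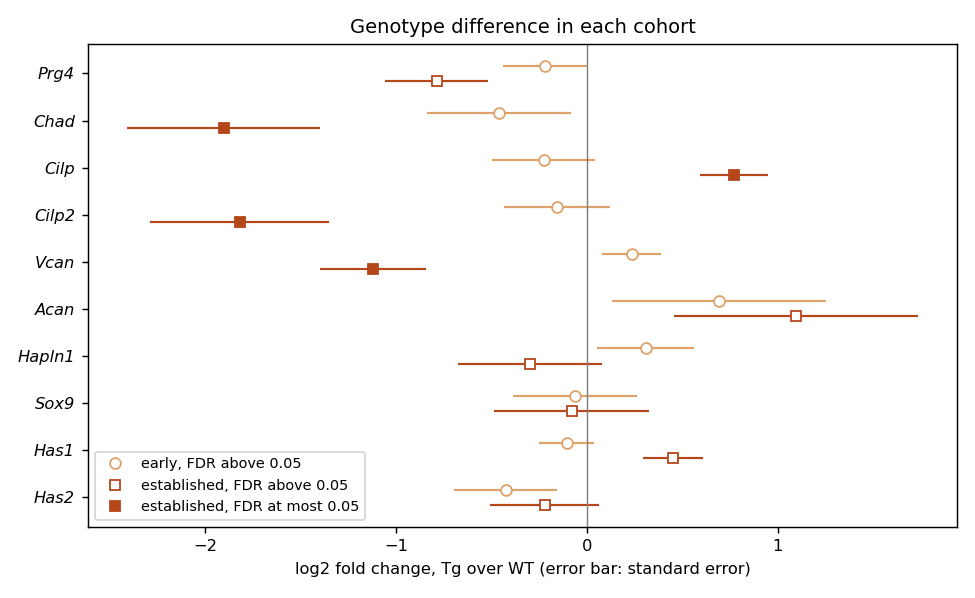
The log2 fold change of Fosl-2(Tg) over WT is plotted for each gene on the horizontal axis, with circles for the early and squares for the established cohort and bars for the standard error. Filled symbols passed an FDR of 0.05; these are *Chad*, *Cilp2* and *Vcan* on the lower side and *Cilp* on the higher side, all in the established cohort.

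*Cilp* (ENSMUSG00000042254, chromosome 9 of GRCm39, 65172200 to 65187888, plus strand) rose in established Fosl-2(Tg) tendons. The lowest, median and highest mouse had 1701, 2520 and 3948 CPM among WT and 3684, 4681 and 4991 CPM among Fosl-2(Tg) mice. The WT range was exceeded in 6 of the 7 Fosl-2(Tg) mice, and only the seventh overlapped with the highest WT mouse, replicate 3. Group means were 2666 ± 748 CPM (SD, n = 6) and 4536 ± 457 CPM (SD, n = 7), a log2 fold change of 0.77 (1.71-fold, standard error 0.18, FDR = 0.0268 by edgeR). In relative terms the spread among Fosl-2(Tg) mice was the narrowest of the 10 genes. The difference passed in 7 of the 13 fits that left out 1 mouse and was lost without WT replicate 1, 2, 4 or 5 or Fosl-2(Tg) replicate 1 or 2 (highest FDR 0.0614).

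Its relative *Cilp2* (ENSMUSG00000044006, chromosome 8, 70333018 to 70340337, minus strand) went the opposite way. *Cilp2* had 1195, 2095 and 2553 CPM in the lowest, median and highest established WT mouse and 70.4, 519 and 1520.5 CPM in the corresponding Fosl-2(Tg) mice. Only Fosl-2(Tg) replicate 4 reached the WT range, and replicate 5, the male, was far below the rest. Means were 2038 ± 536 CPM (SD, n = 6) and 576 ± 451 CPM (SD, n = 7), and *Cilp2* was 3.53-fold lower (log2 fold change -1.82, standard error 0.47, FDR = 0.0371 by edgeR). Leaving out 1 mouse kept the direction in all 13 fits, but 9 of them lost the call, namely those without WT replicate 1, 2, 3, 4 or 5 or Fosl-2(Tg) replicate 1, 2, 3 or 6 (highest FDR 0.0755).

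The ratio of both transcripts within a library does not depend on the scaling between libraries. Per length, *Cilp* and *Cilp2* were near parity in early WT (median ratio 1.01, range 0.627 to 1.62), early Fosl-2(Tg) (1.00, range 0.671 to 1.198) and established WT tendons (1.14, range 0.774 to 1.41). In established Fosl-2(Tg) tendons the median ratio was 6.86, and it ranged from 2.56 to 57.0. All 7 of these mice lay above every mouse of the other 3 groups, including replicate 4, whose *Cilp2* level alone was within the WT range. Both genes had already been called in opposite directions in these mice, so this split is a description and not separate support. How many other pairs of genes split in this way was not computed.

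**Figure D3:**
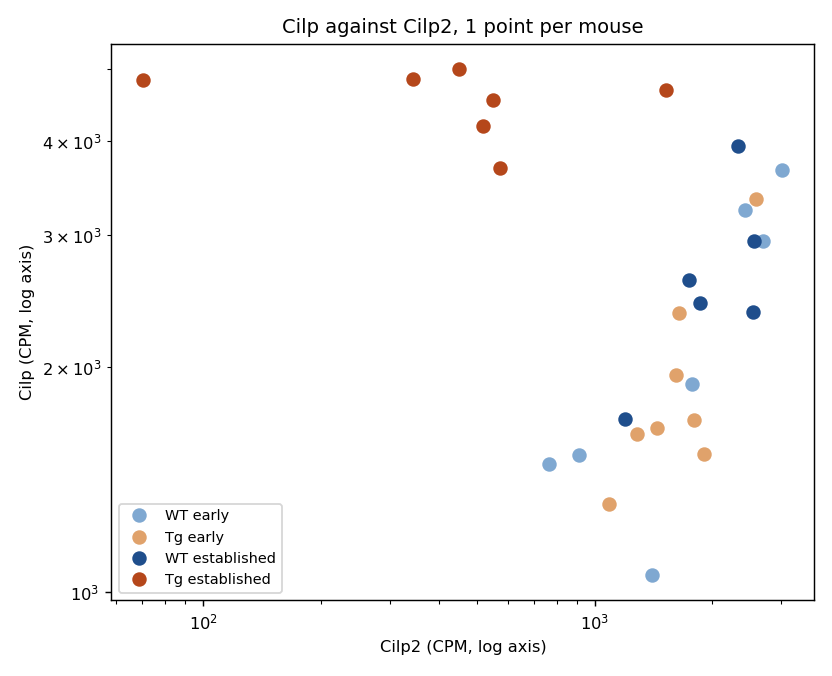
*Cilp* is plotted against *Cilp2* in CPM, both on log axes, with 1 point per mouse and 1 colour per group. The 3 other groups lie along a common band, and the 7 established Fosl-2(Tg) mice lie above and to the left of it.

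*Chad* (ENSMUSG00000039084, chromosome 11, 94455696 to 94459953, plus strand) fell along with *Cilp2*. The lowest, median and highest levels were 1897, 2789 and 3704 CPM in established WT and 70.1, 594 and 1918 CPM in established Fosl-2(Tg) mice. As for *Cilp2*, replicate 4 was the single Fosl-2(Tg) mouse within the WT range and replicate 5 the lowest. The means of 2737 ± 622 CPM (SD, n = 6) and 731 ± 594 CPM (SD, n = 7) gave a 3.74-fold lower level (log2 fold change -1.90, standard error 0.51, FDR = 0.0414 by edgeR). This call was the least stable of the 4 and held in only 2 of the 13 fits with 1 mouse left out (without Fosl-2(Tg) replicate 4 or 5; highest FDR in the others 0.0806). The gene overlaps with *Acsf2* on the opposite strand, and the strand setting of the counting is not stated. The ratio of *Chad* to *Cilp2* per length overlapped between the genotypes, with 3.05 to 4.15 in established WT and 2.25 to 4.61 in established Fosl-2(Tg) tendons.

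*Vcan* (ENSMUSG00000021614, chromosome 13, 89803431 to 89890814, minus strand) was the only hyaluronan-binding proteoglycan of the 10 genes that passed. In established WT tendons it had 262, 320 and 784 CPM in the lowest, median and highest mouse, and in Fosl-2(Tg) tendons 112, 170 and 282 CPM. Of the 7 Fosl-2(Tg) mice 6 were below every WT mouse, and the highest WT value, replicate 2, stood far above the rest. Means were 399 ± 197 CPM (SD, n = 6) and 183 ± 62.9 CPM (SD, n = 7), with a log2 fold change of -1.12 (2.18-fold lower, standard error 0.28, FDR = 0.0337 by edgeR). Without WT replicate 2 the log2 fold change was -0.82 (FDR = 0.0658), and the call was also lost without WT replicate 1 or 6 or Fosl-2(Tg) replicate 1 or 2 (highest FDR 0.0670), while it held in the other 8 fits with 1 mouse left out. Its neighbour on the chromosome, *Hapln1* (89686581 to 89759950, plus strand), did not pass.

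For these 4 genes the 100 bases upstream of the annotated start are shown, because *Cilp* moved against the other 3. RefSeq gives these sequences on GRCm38.p6, a build other than that of the counts. They stand 5′ to 3′ on the strand of the gene, and capitals mark the letters TATAAA.
*Cilp* (chr9:65265080-65265179, plus strand): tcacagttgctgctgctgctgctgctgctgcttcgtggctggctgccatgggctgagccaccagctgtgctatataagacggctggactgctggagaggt
*Cilp2* (chr8:69887393-69887492, minus strand): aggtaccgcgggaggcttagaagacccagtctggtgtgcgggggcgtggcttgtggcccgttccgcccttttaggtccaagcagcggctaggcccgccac
*Chad* (chr11:94564947-94565046, plus strand): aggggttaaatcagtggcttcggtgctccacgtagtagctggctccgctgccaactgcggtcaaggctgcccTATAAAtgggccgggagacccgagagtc
*Vcan* (chr13:89742513-89742612, minus strand): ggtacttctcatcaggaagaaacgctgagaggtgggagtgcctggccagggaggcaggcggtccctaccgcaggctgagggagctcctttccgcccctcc
These stretches held 2 (*Cilp*), 8 (*Cilp2*), 6 (*Chad*) and 4 (*Vcan*) CG dinucleotides, and G and C made up 60% to 67% of the bases. TATAAA was found in *Chad*, where it began 28 bases before the start. Only these exact letters were searched, so similar stretches, such as tatataag in *Cilp*, were not counted. Promoters of 7 of the 10 genes were in the RefSeq set, without *Sox9*, *Prg4* and *Has2*. In windows of 300 bases (250 before and 50 after the start, both strands), TATAAA was in 1 of these 7 and in 13.6% of 32851 promoters. The AP-1 motif TGANTCA, which reads the same on both strands, was in 0 of 7 and in 7.81% of all promoters, which says only that these letters were not in these windows.

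*Prg4* (ENSMUSG00000006014, chromosome 1, 150325163 to 150342009, minus strand) had the highest CPM of the 10 genes in 3 of the 4 groups. The lowest, median and highest levels were 4036, 5817 and 6578 CPM in established WT and 1639, 3168 and 6343 CPM in established Fosl-2(Tg) tendons. All but 1 of the 7 Fosl-2(Tg) mice were below every WT mouse, and replicate 4 was again inside the WT range. The log2 fold change of -0.79 (standard error 0.27) did not pass the adjustment (FDR = 0.0897 by edgeR). It passed without Fosl-2(Tg) replicate 4 (log2 fold change -1.03, FDR = 0.0217) and with DESeq2 (FDR = 0.0229), limma voom (FDR = 0.0416) or all libraries in 1 fit (FDR = 0.0491). *Prg4* shares part of its locus with *Tpr* on the opposite strand.

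Neither hyaluronan synthase passed the test. *Has1* had 9.81, 13.9 and 15.6 CPM in the lowest, median and highest established WT mouse and 12.3, 17.7 and 26.05 CPM in the Fosl-2(Tg) mice, of which 5 of 7 exceeded the WT range. It differed by 0.45 on the log2 scale (standard error 0.16, FDR = 0.0925 by edgeR), which passed with limma voom (FDR = 0.0169) and without the male Fosl-2(Tg) replicate 5 (FDR = 0.0466). *Has2* was at 10.7, 12.1 and 33.4 CPM in WT and at 7.17, 13.8 and 18.2 CPM in Fosl-2(Tg) mice, so that the WT range enclosed most of the Fosl-2(Tg) mice. The log2 fold change of *Has2* was -0.22 (standard error 0.28, FDR = 0.644 by edgeR), and it was 0.16 without WT replicate 2, the mouse that also had the highest *Vcan* level. The ratio of *Has1* to *Has2* per length overlapped between the genotypes (median 1.17 in established WT and 1.57 in established Fosl-2(Tg) tendons).

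The genes of the aggrecan complex were low and did not pass. *Acan* (ENSMUSG00000030607, chromosome 7, 78702964 to 78764847, plus strand) lay at 1.12, 2.12 and 3.05 CPM in established WT and at 1.03, 1.56 and 14.2 CPM in established Fosl-2(Tg) mice. In 5 of these 7 mice the level was at most 1.77 CPM, whereas replicates 6 and 7 had 10.4 and 14.2 CPM. The means (2.10 ± 0.625 and 4.52 ± 5.45 CPM) therefore differed by 1.10 on the log2 scale (standard error 0.64, FDR = 0.286 by edgeR) although the Fosl-2(Tg) median was the lower one. Without replicate 7 the log2 fold change was 0.42. The same 2 mice had the highest *Hapln1* (3.59 and 5.48 CPM) and the highest *Sox9* (4.67 and 8.14 CPM) of their group. *Hapln1* differed by -0.30 on the log2 scale (standard error 0.38, FDR = 0.638 by edgeR), with medians of 2.89 CPM in WT and 1.91 CPM in Fosl-2(Tg) mice. For *Sox9* it was -0.08 (standard error 0.41, FDR = 0.915 by edgeR), with medians of 3.34 and 2.32 CPM.

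In the early cohort none of the 10 genes passed the test. Of the 15138 genes tested, 0.0396% passed. An unadjusted p under 0.05 by edgeR was found for 0 of the 10, against 917 of the 15138. DESeq2 and limma voom likewise called 0 of the 10 genes. The log2 fold changes of the 4 genes called later were 0.23 (*Vcan*, standard error 0.15), -0.23 (*Cilp*, standard error 0.27), -0.16 (*Cilp2*, standard error 0.28) and -0.46 (*Chad*, standard error 0.38), with FDR values of 0.854 to 0.942 by edgeR. Over the 10 genes the median log2 fold change was -0.13, against -0.01 over all genes.

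The early genotypes overlapped for every one of the 10 genes, and they did not overlap for 0.0528% of all genes tested. *Chad* had 878, 1670 and 3913 CPM in the lowest, median and highest early WT mouse and 1019, 1217 and 3505 CPM in the Fosl-2(Tg) mice. Levels were high in WT replicates 1, 2 and 3 and in Fosl-2(Tg) replicate 1, and the same 4 mice had the highest *Cilp*, *Cilp2* and *Prg4* levels of the cohort. *Cilp* ranged from 1055 to 3660 CPM in early WT and from 1313 to 3349 CPM in early Fosl-2(Tg) tendons. *Prg4* ranged from 3576 to 8497 CPM and from 3986 to 8520 CPM, and *Cilp2* from 765 to 3021 CPM and from 1088 to 2586 CPM. For all 4 genes the range of the Fosl-2(Tg) mice lay largely inside that of the WT mice. *Vcan* was more even, with 240, 472 and 534 CPM in WT and 403, 528 and 636 CPM in Fosl-2(Tg) mice, where WT replicate 2 was far below all other mice. *Acan* was the most uneven gene, with 2.60, 6.33 and 38.5 CPM in WT and 4.16, 18.1 and 38.3 CPM in Fosl-2(Tg) mice (log2 fold change 0.69, standard error 0.56, FDR = 0.885 by edgeR). *Hapln1* ranged from 2.08 to 9.02 CPM, *Sox9* from 1.78 to 9.94 CPM, *Has1* from 8.26 to 19.5 CPM and *Has2* from 3.34 to 17.5 CPM over the 15 early mice, with no split by genotype.

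An interaction term in a fit of all 4 groups tested whether the effect of the genotype changed from the early to the established cohort. It passed for 1 of the 10 genes, *Vcan*, against 7.43% of the 16082 genes tested. Early Fosl-2(Tg) mice had a mean *Vcan* level of 533 ± 92.0 CPM (SD, n = 8) and early WT mice one of 453 ± 98.5 CPM (SD, n = 7), whereas the established genotypes stood in the reverse order. The log2 difference between the 2 genotype effects was -1.36 (standard error 0.32, FDR = 0.0128 by edgeR), and it passed in each of the 28 fits that left out 1 mouse (highest FDR 0.0267, without established WT replicate 2). For *Cilp2* the difference was -1.67 (FDR = 0.0568), for *Cilp* 0.99 (FDR = 0.0679) and for *Chad* -1.45 (FDR = 0.158 by edgeR), and these 3 did not pass. A block for the replicate number joined same-numbered mice of all 4 groups here, although no label links the cohorts by number. With this block, *Cilp2* (-1.83, FDR = 0.0393) and *Cilp* (1.02, FDR = 0.0395 by edgeR) passed. Both also passed with DESeq2 (FDR = 0.0204 and 0.0345) and limma voom (FDR = 0.0279 and 0.0314), and *Cilp2* with sex as a covariate (FDR = 0.0256), whereas *Chad* passed under none of these 4 settings. The cohorts differ in sex as well as in age, and these cannot be told apart.

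Among WT mice, the step from the early to the established cohort passed for 1 of the 10 genes, *Acan*, against 5.81% of all genes tested. *Acan* fell from 11.8 ± 13.2 CPM (SD, n = 7) to 2.10 ± 0.625 CPM (SD, n = 6), which is -2.46 on the log2 scale (standard error 0.69, FDR = 0.0342 by edgeR). The early mean rested on WT replicates 4 and 5 with 20.4 and 38.5 CPM, and the lowest early mouse (2.60 CPM) overlapped with the established range of 1.12 to 3.05 CPM. The call was lost without early WT replicate 4 or 5 and without established WT replicate 1, 3, 4 or 5 (highest FDR 0.107). It was also lost with the replicate number as a block over both cohorts (log2 fold change -2.04, FDR = 0.0910). With sex as a covariate it was lost although the log2 fold change was larger (-3.05, FDR = 0.145 by edgeR). The other 9 genes did not pass, with log2 fold changes of -0.76 for *Hapln1* (FDR = 0.183), -0.71 for *Sox9* (FDR = 0.292) and 0.59 for *Has2* (FDR = 0.252 by edgeR).

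The genes fell into sets that varied together from mouse to mouse. After the group means had been removed from log2 CPM, Pearson's r over the 28 mice was 0.941 between *Cilp2* and *Chad*, 0.906 between *Prg4* and *Chad* and 0.830 between *Prg4* and *Cilp2*. A second set was made up of *Acan*, *Hapln1* and *Sox9*, with r of 0.775 (*Acan* and *Hapln1*), 0.712 (*Sox9* and *Hapln1*) and 0.686 (*Sox9* and *Acan*). *Cilp* was positively related to the first set (r = 0.513 with *Chad* and 0.581 with *Prg4*) and negatively to the second (r = -0.569 with *Hapln1* and -0.416 with *Acan*). *Cilp* and *Cilp2* were positively related over the 28 mice pooled (r = 0.418), while their means moved apart in established Fosl-2(Tg) tendons. The pooled value does not describe each group. Among established Fosl-2(Tg) mice, replicate 5 had the lowest *Cilp2* (70.4 CPM) with 4825 CPM of *Cilp*. Replicate 4 had the highest *Cilp2* (1520.5 CPM) with 4681 CPM of *Cilp*. All of these values share libraries and tissue composition and are given as a description.

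Among 16082 genes, those whose levels were most like *Acan* in the same measure were *Cpxm1* (r = 0.912), *Nt5dc2* (0.911), *Adam12* (0.908), *Rhod* (0.894) and *Cthrc1* (0.889). For *Prg4* they were *Lamb2* (r = 0.911), *Chad* (0.906), *Ccdc3* (0.879), *Aplp2* (0.857) and *Igfbp7* (0.849). For *Cilp* they were *Pdgfrb* (r = 0.902), *Ntn1* (0.898), *Sun2* (0.885), *Gramd4* (0.881) and *Map3k3* (0.870).

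Related genes were examined as lists. Of 5 further hyalectans and link proteins, 3 were tested in the established cohort. As lower, 3.37% of all genes passed, and 1 of these 3 did. This was *Bcan* (brevican), a proteoglycan of the *Acan* and *Vcan* family best known from brain, which fell from 4.93 ± 1.09 to 1.87 ± 1.24 CPM (log2 fold change -1.40, FDR = 0.0306 by edgeR). It held in 5 of 13 fits that left out 1 mouse and was lost without WT replicate 1, 2, 4, 5 or 6 or Fosl-2(Tg) replicate 1, 2 or 3 (highest FDR 0.0676), with all libraries in 1 fit (FDR = 0.0581) and without the 2 males (FDR = 0.0515). The median log2 fold change of the 3 was -0.96. Of 18 genes of hyaluronan synthesis, turnover and binding, 16 were tested and 1 passed, as higher, a share near the 6.51% of all genes. This count was 0 to 1 with 1 mouse left out and 0 (no filter) to 6 (limma voom) under the other alternatives. It was *Lyve1*, the hyaluronan receptor of lymphatic endothelium and of some tissue macrophages, which rose from a mean of 77.3 to 123.6 CPM, and 5 of 7 Fosl-2(Tg) mice exceeded the WT range (log2 fold change 0.68, FDR = 0.0456 by edgeR). The *Lyve1* call held in 3 of 13 fits that left out 1 mouse, those without WT replicate 3 or Fosl-2(Tg) replicate 5 or 6 (highest FDR in the others 0.0917). It was also lost with no filter (FDR = 0.0581), the replicate block (FDR = 0.0798), all libraries in 1 fit (FDR = 0.0722) and without the 2 males (FDR = 0.0676). The main hyaluronan receptor, *Cd44*, did not pass (log2 fold change 0.15, FDR = 0.714 by edgeR), and the median of the list was 0.13.

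Of 18 further genes of cartilage matrix and chondrocytes, 12 were tested in the established cohort, of which 1 was higher and 4 were lower (3.14% and 3.37% of all genes), with a median log2 fold change of -0.48. With 1 mouse left out the count of 5 lay between 2, when WT replicate 1 was omitted, and 6, when Fosl-2(Tg) replicate 4 was omitted, and it was 4 to 7 under the other alternatives. *Col2a1*, the fibrillar collagen of cartilage, had 19.0, 28.8 and 37.1 CPM in the lowest, median and highest WT mouse and 2.96, 8.18 and 17.7 CPM in Fosl-2(Tg) mice. The genotypes did not overlap (log2 fold change -1.63, FDR = 0.0207 by edgeR), which was the case for 3.81% of all genes tested and for 0 of the 10 genes themselves. Of this list, *Matn3*, *Sox6* and *Cnmd* did not overlap either. *Matn3* (matrilin-3) fell from 19.2 to 3.43 CPM (log2 fold change -2.50, FDR = 0.0236), and *Col11a1*, a collagen that nucleates thin fibrils, from 430.3 to 156.5 CPM (log2 fold change -1.46, FDR = 0.0483 by edgeR). The *Col11a1* call held in 3 of 13 fits that left out 1 mouse, those without Fosl-2(Tg) replicate 4, 5 or 6 (highest FDR in the others 0.0931), and was lost with no filter (FDR = 0.0565) and without the 2 males (FDR = 0.0600). *Sox6*, a partner of *Sox9* that was picked out after its values were seen, also fell (log2 fold change -0.52, FDR = 0.0215 by edgeR). Without WT replicate 1, *Matn3* and *Sox6* did not pass (FDR = 0.0506 for both). *Cnmd* (chondromodulin), the 1 higher gene, rose, but from means of 0.125 to 0.471 CPM, close to the filter on low counts. When single mice were omitted, *Cnmd* kept enough counts for a test only 3 times in 13, and it passed these 3 times. Where *Cnmd* was not tested, it could not add to the count of this list. It was also untested in the early cohort and in the fit of all 4 groups. Too few counts to be tested were found for 6 genes of the list, namely *Col9a1*, *Col9a2*, *Matn1*, *Ucma*, *Nkx3-2* and *Ihh*. The summed level of the list ranged from 2060 to 3154 CPM in established WT and from 364 to 2860 CPM in established Fosl-2(Tg) tendons. Much of this sum came from *Comp* (means 1496 in WT and 1098 CPM in Fosl-2(Tg), log2 fold change -0.44, FDR = 0.452 by edgeR). *Col11a2* added 614 and 229 CPM (log2 fold change -1.42, FDR = 0.0749 by edgeR). Neither gene passed.

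Of 27 genes of chondroitin sulfate synthesis, which make the chains carried by *Acan* and *Vcan*, 26 were tested in the established cohort and 1 passed, below the 6.51% of all genes. This count was 0 to 2 with 1 mouse left out and 0 (no filter) to 5 (limma voom) under the other alternatives. It was the sulfate transporter *Slc26a2* (53.2 against 44.1 CPM, log2 fold change -0.26, FDR = 0.0488 by edgeR), and the median of the list was -0.16. The *Slc26a2* call held in 1 of 13 fits that left out 1 mouse (without Fosl-2(Tg) replicate 7; highest FDR in the others 0.106) and was lost with no filter (FDR = 0.0666), the replicate block (FDR = 0.0745) and without the 2 males (FDR = 0.0695). In the early cohort 0 genes of these 4 lists passed, by edgeR, DESeq2 or limma voom. Genes with an unadjusted p under 0.05 by edgeR numbered 3 of 12 in the cartilage list and 2 of 26 in the chondroitin sulfate list. There were 0 in the other 2 lists, and 917 of all 15138 genes tested had such a p.

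**Figure D4:**
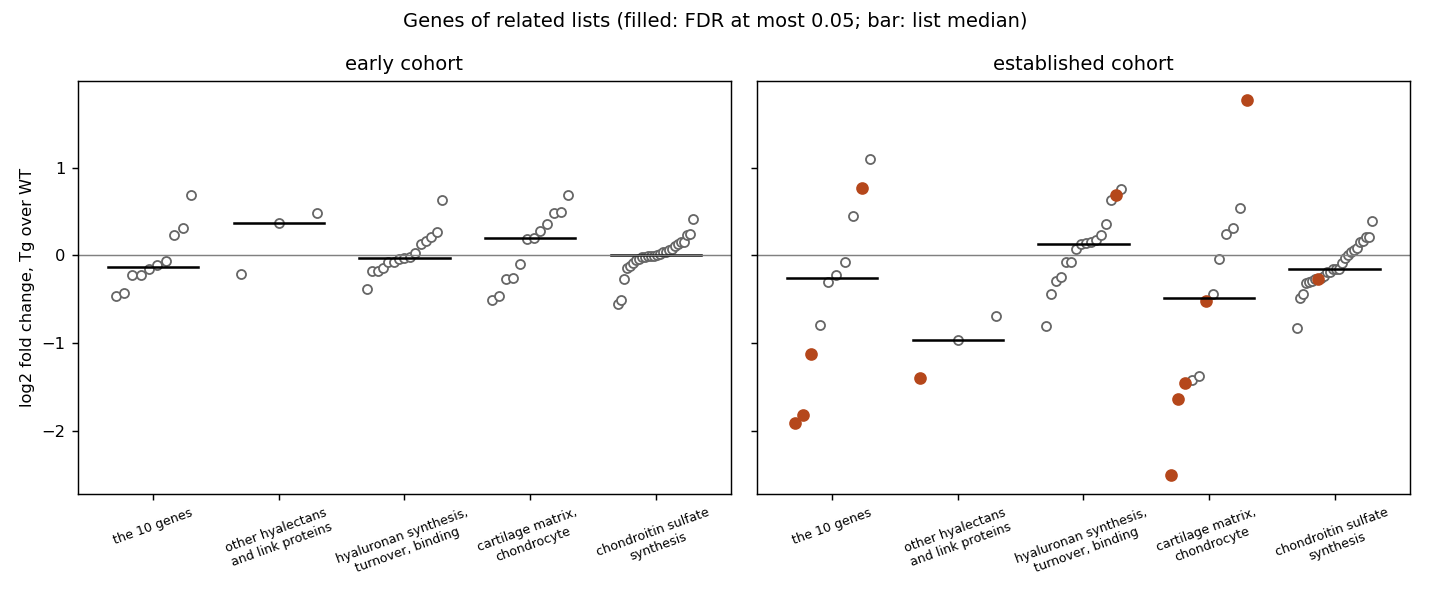
The log2 fold change of Fosl-2(Tg) over WT is shown for the tested genes of each list, with the early cohort in the left and the established cohort in the right panel. Circles are genes, filled where the FDR was at most 0.05, and bars are list medians. Filled circles occur only in the established panel, where the 10 genes lie from -1.90 (*Chad*) to 1.10 (*Acan*, open).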

How the data were processed

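Tail tendon fascicles were depleted of ribosomal RNA and sequenced as paired reads by the authors, who aligned them to GRCm39 with STAR and used featureCounts to obtain counts per gene. The deposited values are raw counts per gene, all whole numbers, from 1 library for each of 28 mice. How strand and multi-mapping reads were handled is not given in the sources used here, so genes that overlap are uncertain. Groups, sex and replicate numbers were taken from the labels. No pair of libraries was a duplicate (closest of 85 within-group pairs, chi-square 7.42 per degree of freedom). Symbols, coordinates and exon lengths came from GENCODE on the same assembly, and 25505 of 25719 identifiers were named.

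Counts were filtered with filterByExpr (minimum count 10, minimum total 15), scaled by TMM and compared by the quasi-likelihood test of edgeR 4.0.16 in R 4.3.3 without covariates, within each cohort, with Benjamini-Hochberg adjustment over all genes. The interaction and the comparison of WT cohorts came from 1 fit of the 4 groups. Standard errors were derived from the F statistic. A prior count of 2 was used for log2 CPM. Mice came from different litters, but the labels do not say which mice shared one. Each library is 1 mouse, so p-values measure the spread between mice. Alternatives were DESeq2 1.42.0 with default parameters, the tool of the authors, RLE scaling, no filter, a mean of at least 1 CPM, a block for the replicate number, limma 3.58.1 voom with quality weights, all libraries in 1 fit, sex as a covariate, removal of the 2 established males and each mouse left out in turn. The fits were tested on simulated counts with known changes. Each gene was drawn independently there, without outlying mice or differences in tissue composition. The simulation therefore cannot say how such features affect the calls. Counting error is small for the abundant genes, while *Sox9*, *Acan* and *Hapln1* rest on fewer reads.

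The text names the 10 genes, *Col2a1*, *Cd44*, *Fosl2*, and from each related list up to 3 genes per direction and cohort with the largest log2 fold change past the FDR threshold. For likeness it names the 5 genes with the highest Pearson's r with *Acan*, *Prg4* and *Cilp*. *Comp* and *Col11a2* are named for their share in the sum of the cartilage list. The 10 genes, the lists and the rules were chosen with earlier results of these data known. Marker lists not named in the report (tendon sheath, nucleus pulposus, erythroid, keratinocyte, macrophage, adipocyte and endothelial cells) are summarised in the closing section. In the early cohort, deviations of same-numbered WT and Fosl-2(Tg) mice were positively correlated in all 7 pairs (0.140 to 0.404). Only 1 of the 7 mice was closest to its own number, and the labels give no shared litter or batch. A pairing by number was therefore not shown. With the replicate number as a block, 0 of the 10 early genes passed and the early calls over all genes rose from 6 to 11. Promoter sequences are from RefSeq (GRCm38.p6). Figures were drawn with matplotlib 3.10.9.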

Additional observations from a re-analysis of the deposited data

Results flagged for a closer look

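Over 40 gene and group combinations of the 10 genes, 8 held 1 mouse that stood apart by Dixon's criterion at the 95% level, which chance alone gives in about 1 of 20. In early WT tendons, *Vcan* was at 240.0 CPM in replicate 2, while the next mouse had 459 CPM. In established WT tendons, replicate 2 had 784 CPM of *Vcan* (next 428 CPM) and 33.4 CPM of *Has2* (next 12.7 CPM), and replicate 6 had 4036 CPM of *Prg4* (next 5767 CPM). Without established WT replicate 2, the established log2 fold change was -0.82 for *Vcan* (FDR = 0.0658 by edgeR) and 0.16 for *Has2*. Established Fosl-2(Tg) replicate 4 stood apart with 6343 CPM of *Prg4* (next 3510.0 CPM) and 1520.5 CPM of *Cilp2* (next 574 CPM). Without it, the established log2 fold changes were -1.03 for *Prg4* and -2.28 for *Cilp2*. Early Fosl-2(Tg) replicate 1 had 3.33 CPM of *Hapln1* (next 5.67 CPM) and 3505 CPM of *Chad* (next 2028 CPM). The genotype effect on *Vcan* differed between the cohorts by -1.36 on the log2 scale (FDR = 0.0128 for the interaction by edgeR).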

How the results depend on the processing

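No early call was made for the 10 genes under 7 alternatives or in 15 fits with 1 mouse left out. In the established cohort, the 4 genes kept their direction under 9 alternatives and in 13 fits with 1 mouse left out, and the count of genes past the FDR threshold was 4 to 6 under 8 alternatives, including 4 with the replicate number as a block, but 2 without the 2 males. It ranged from 0 to 5 with 1 mouse left out. Established calls over all genes also moved, from 1032 in the reported fit to 560 without the 2 males. They were 761 (no filter) to 2206 (DESeq2) under the other 8 alternatives. For the interaction, the count of the 10 genes was 1 in the reported fit, 3 with DESeq2 and 4 with limma voom. It was 3 with the replicate block, 2 with sex as a covariate and 1 to 3 with 1 mouse left out. Interaction calls over all genes numbered 1195, then 1798 with DESeq2, 1951 with limma voom, 1156 with the block and 1444 with sex. For the WT cohorts the count of the 10 genes was 1. It was 0 with the replicate block, 0 with sex as a covariate and 0 to 1 with 1 mouse left out. Here the calls over all genes numbered 935, then 787 with the block and 432 with sex. In the established cohort the correlation of same-numbered mice was -0.225 to 0.689 over 6 pairs, with 4 of them over 0.1 and 2 mice closest to their own number. A pairing by number was not shown in either cohort. For the interaction and the WT cohorts, the block joined same-numbered mice across cohorts, which no label links.

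Directions turned only for values that did not pass. With the replicate block, the log2 value was 0.0088 for early *Cilp2*, -0.16 for established *Acan*, -0.10 for established *Cd44* and -0.31 for the *Acan* interaction. With limma voom it was 0.13 for early *Sox9*, 0.0049 for established *Has2* and -1.10 for the *Acan* interaction. Without the 2 males it was 0.25 for established *Sox9* and 0.29 for its interaction. With sex as a covariate the WT cohorts differed by -0.86 for *Cilp2* and -0.75 for *Chad*. With 1 mouse left out, the values ranged from -0.24 to 0.13 (early *Sox9*), -0.29 to 0.014 (early *Cilp2*), -0.51 to 0.10 (established *Sox9*), -0.31 to 0.16 (established *Has2*), -0.10 to 0.27 (established *Cd44*), -0.44 to 0.17 (*Sox9* interaction), -0.29 to 0.63 (*Acan* interaction) and -0.11 to 0.0097 (*Has1* between WT cohorts). The cause was not tested. For genes of few reads (*Sox9*, *Acan*, *Hapln1*), the part of depth in the spread between mice was not tested.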

Other observations

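Other marker lists gave the following counts in the established cohort. None of the tested tendon sheath (5 of 5), nucleus pulposus (1 of 6), erythroid (4 of 6), keratinocyte (2 of 6), adipocyte (1 of 5), bone (1 of 6) and endothelial genes (5 of 5) passed (edgeR's quasi-likelihood test, FDR of at most 0.05). Of these, 3 erythroid genes, 1 tendon sheath gene and 0 others had an unadjusted p under 0.05, against 4213 of all 15862 genes tested. Of 8 macrophage genes 1 passed, *Cd163*, as higher, against 3.14% of all genes. The summed erythroid markers ranged from 8.94 to 20.1 CPM in established WT and from 10.2 to 125.8 CPM in established Fosl-2(Tg) tendons, with the highest sum in Fosl-2(Tg) replicate 4, the mouse whose *Prg4*, *Cilp2* and *Chad* levels were within the WT range. That mouse also had the highest sum of tendon fibroblast markers of its group (73224 CPM). The summed macrophage markers ranged from 505 to 766 CPM in WT and from 630.5 to 1014 CPM in Fosl-2(Tg) tendons. Their part in the differences of the 10 genes was not tested.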
